A study of Mus musculus with 8 samples.

Results

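The 2/4 clone of the mouse neuroblastoma line N18TG2 was compared with its parental line without retinoic acid. The members of this comparison are the 4 arrays that the sample titles mark as untreated, 2 of the clone and 2 of the parental cells, out of 8 arrays in the series. The clone is labelled as expressing ChAT, choline acetyltransferase, which synthesises acetylcholine, and was kept under G418, an antibiotic that selects cells with a resistance gene. The parental cells carry no such label, and no G418 is stated for them. Both were grown in medium with serum. The labels do not say whether the untreated cells for RNA stood in that medium or in the low-serum medium used with retinoic acid (RA). The other 4 arrays held the clone and the parental line after 1 µM all-trans RA and are used to estimate the spread and as a second look at the line difference. The 2/4 line is 1 clone, and the labels do not say which ChAT sequence it carries, so its differences from the parental population are those of a clone as well as of ChAT, and these cannot be told apart. G418, slide row and slide column also go with the line. The labels name no separate cultures within a group, and p-values then measure only the spread between these samples, which may be technical.

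N18TG2 comes from the C1300 tumour of sympathetic origin and was selected for resistance to thioguanine, a purine analogue that kills cells in which the salvage enzyme HPRT is active. Neuroblastoma cells share a lineage with sympathetic neurons and the adrenal medulla. They can carry noradrenergic genes (Hand2, Dbh), cholinergic genes, or both, and on differentiation they extend neurites and switch on cytoskeletal, synaptic and channel genes. Lamin A/C, the product of Lmna and named in the title of the series, forms the nuclear lamina together with B-type lamins.

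Levels are given as the log2 of an array's background-subtracted intensity minus that array's 75th percentile, so 0 marks a bright probe and 1 unit is a 2-fold step. The 75th percentile of the intensity was 608.3 and 737.0 on the clone arrays and 264.8 and 774.6 on the parental arrays. Parental replicate 1 was thus the dimmest of the 4 arrays, and 47.76% of its probes were well above background, against 55.38% on parental replicate 2 and 58.15% to 58.42% on the clone arrays. Replicates correlated across genes at r = 0.9873 in the clone and at 0.9838 among parental arrays, and arrays of different lines at 0.9453 to 0.9506. The extraction protocol in the labels mentions hippocampus, while every sample is labelled as this cell line. Of 20 hippocampal neuron markers on the array, 12 were not well above background on any untreated array, among them Emx1, Gad1, Neurod6, Prox1 and Tbr1, and 7 were well above background on both arrays of each line. The sympathoadrenal factor Eya1 (5.40 and 5.33 in the clone, against 5.30 and 5.63 in the parental line) was high in both lines and not called. Some genes named below were measured on part of a group: Sema4f, Nfasc, Itga9, Spry3, Slc22a18 and Nrip2 were well above background on 1 parental array, and Neurog2, Artn, Ccn1 and Lrrn4 on 1 clone array.

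Lmna was higher in the untreated clone. It read 4.86 and 5.17 in the clone, against 3.80 and 3.68 in the parental line. The groups did not overlap, which held for 9481 higher and 6303 lower genes among all 26262 tested. The difference was 1.27 ± 0.26 on the log2 scale (limma, n = 2 arrays per group, where ± gives the standard error here and below), a 2.42-fold higher signal (adjusted p = 0.0255, 95% interval 0.66 to 1.89). The adjusted p ended above 0.05 when any 1 of the 4 untreated arrays was left out (differences of 1.12 to 1.43, adjusted p from 0.093 to 0.189) and without a filter on dim probes (0.0794). On the RA arrays, where the slide rows of the lines are exchanged, the line difference was 0.12 (adjusted p = 0.766). The limma test of the change between treatments was not called for Lmna (1.15, adjusted p = 0.233). The average of both line differences, in which slide row but not slide column cancels, was 0.70 (adjusted p = 0.0298).

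Chat itself was read by 1 probe and did not separate the lines. It read -3.73 and -2.71 in the clone, against -2.63 and -4.57 in the parental line, so the ranges overlapped. The difference was 0.38 ± 1.27 (adjusted p = 0.897, 95% interval -2.62 to 3.38), an interval that holds differences of several log2 units in the clone's favour and against it. A ChAT cDNA that lacks the stretch this probe reads would not be seen, and whether it does is not stated in the labels. On the RA arrays the line difference was 3.40 and not called (adjusted p = 0.0996). Chat read 1.10 and -2.58 in the clone with RA, against -3.22 and -5.06 in the parental line with RA. The size of that difference thus rests largely on clone RA replicate 1, while clone RA replicate 2 read close to the untreated clone. Without RA, 1 of 18 cholinergic genes tested was higher and 1 was lower, a share of 11.1%, near the 12.9% over genes with a symbol. Prima1, the membrane anchor of acetylcholinesterase, read 2.00 and 2.30 in the clone, against 0.22 and 0.03 in the parental line, a difference of 2.02 ± 0.32 (adjusted p = 0.00978). Slc18a3, the vesicular acetylcholine transporter whose gene lies within the Chat locus, was lower, with -1.74 and -1.32 in the clone, against 0.14 and 0.16 in the parental line (-1.68 ± 0.28, adjusted p = 0.0112).

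Between the untreated lines 2578 of 26262 genes tested were called at an adjusted p under 0.05, which is 9.82%. In the clone 1609 were higher (6.13%) and 969 were lower (3.69%), and the median difference over all genes was 0.11. Among the 15184 genes with a symbol, from which the gene lists are drawn, 12.9% were called, 7.84% higher and 5.06% lower. The count depended on each array. It was 1028 without clone replicate 1, 785 without clone replicate 2, 1028 without parental replicate 1 and 1095 without parental replicate 2, with 1 array left to stand for its group. Among 50 lists of genes for pathways, families and cell types, 259 of 1245 genes were called, and 106 to 141 were when 1 of these 4 arrays was left out. The plot of gene lists shows that semaphorins, cyclic AMP signalling and growth cone proteins had called members only on the higher side in this fit and immediate early genes only on the lower side.

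**Figure D1:**
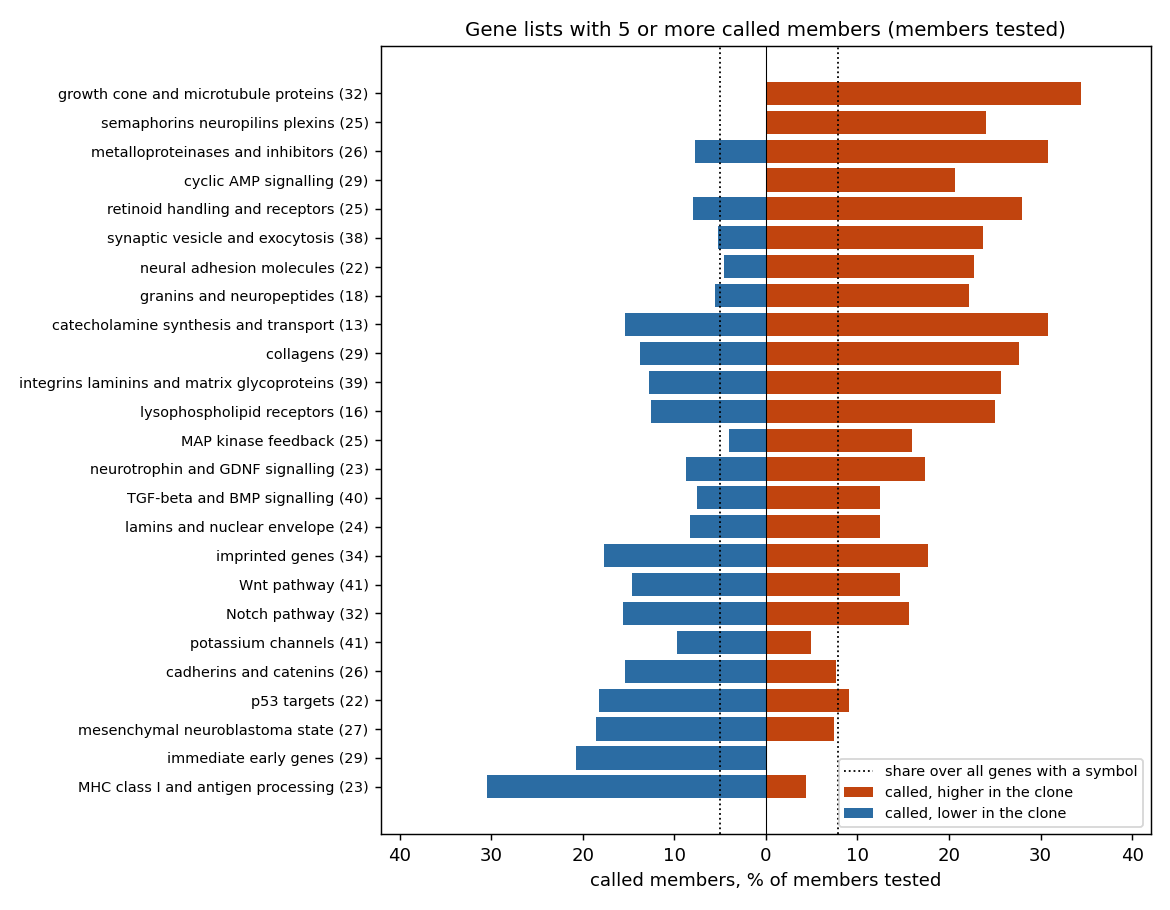
Share of called members in each gene list with 5 or more called members, in percent of the members tested (number in brackets), with genes higher in the untreated clone to the right and lower to the left of 0. Dotted lines mark the shares over all genes with a symbol, 7.84% higher and 5.06% lower; growth cone proteins reach furthest to the right and MHC class I genes furthest to the left.

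Several genes of the axon and its growth cone were higher in the clone. Of 32 growth cone and microtubule genes tested, 11 were called higher and 0 lower, with a median difference of 0.85 over the list, and at least 4 stayed called without any 1 of the 8 arrays. Stmn2 (SCG10), a microtubule-destabilising protein of growing neurites, read 5.47 and 5.59 in the clone, against 1.74 and 1.58 in the parental line, a 14.7-fold difference (adjusted p = 0.000928). Gap43, the growth-associated membrane protein, read 5.97 and 6.05 in the clone, against 4.39 and 3.73 in the parental line (3.86-fold, adjusted p = 0.00972). Dclk1, a doublecortin-like kinase that binds microtubules, read 2.78 and 3.29 in the clone, against -0.04 and -0.08 in the parental line, and its other bright probes differed by 1.31 and 3.07. In each of these the lowest clone array lay above the highest parental array, as it did for 9481 of all 26262 genes tested. Kif21b, a kinesin motor, differed by 2.81 ± 0.28 and Dpysl3, a collapsin response mediator, by 1.23 ± 0.28 from a mean parental level of 6.30. Map1b was called higher through its brightest probe (1.33 ± 0.30), but another of its probes, bright on all 4 arrays, differed by -1.20, so its direction rests on the probe.

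Of 10 intermediate filament genes 3, all of neurons, were higher and 1 lower (40% called, against 12.9% over genes with a symbol). With other processing settings and no single array left out, the counts were as low as 0 higher and 0 lower. Nefh, the heavy neurofilament chain, read 5.99 and 5.92 in the clone, against 4.56 and 4.34 in the parental line. Ina (alpha-internexin) and Prph (peripherin, the filament of peripheral neurons) were higher by 1.60 ± 0.30 and 1.07 ± 0.26. Krt8, a keratin of simple epithelia, was not well above background on the clone arrays and read -1.78 and -0.52 in the parental line, at least 52.4-fold lower in the clone (adjusted p = 0.00767).

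Guidance and adhesion genes were also called mainly on the higher side, among them 3 of 15 genes of Slit and netrin signalling. Slit1, a secreted repellent of growing axons, read 2.58 and 2.74 in the clone, against -4.15 and -4.19 in the parental line, a 114-fold difference (adjusted p = 8.45e-05). Of 25 semaphorin, neuropilin and plexin genes 6 were higher and 0 lower, and Sema4f read -0.69 and -0.49 in the clone, against -5.09 and -4.38 in the parental line. Without any 1 array at least 1 of these 6 stayed called. Among 22 neural adhesion molecules 5 were higher and 1 lower. Nfasc (neurofascin), which organises the axon initial segment, was higher by 5.52 ± 0.58, and Nrxn2, a presynaptic neurexin, by 2.11 ± 0.30. Cntn3, a contactin, was the exception, at least 61.8-fold lower in the clone, where it was not well above background on either array. Ephb4, an ephrin receptor, was lower as well, with -4.24 and -4.27 in the clone, against 1.74 and 1.22 in the parental line, and its other bright probe differed by -2.63, against -5.74 ± 0.56 here.

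**Figure D2:**
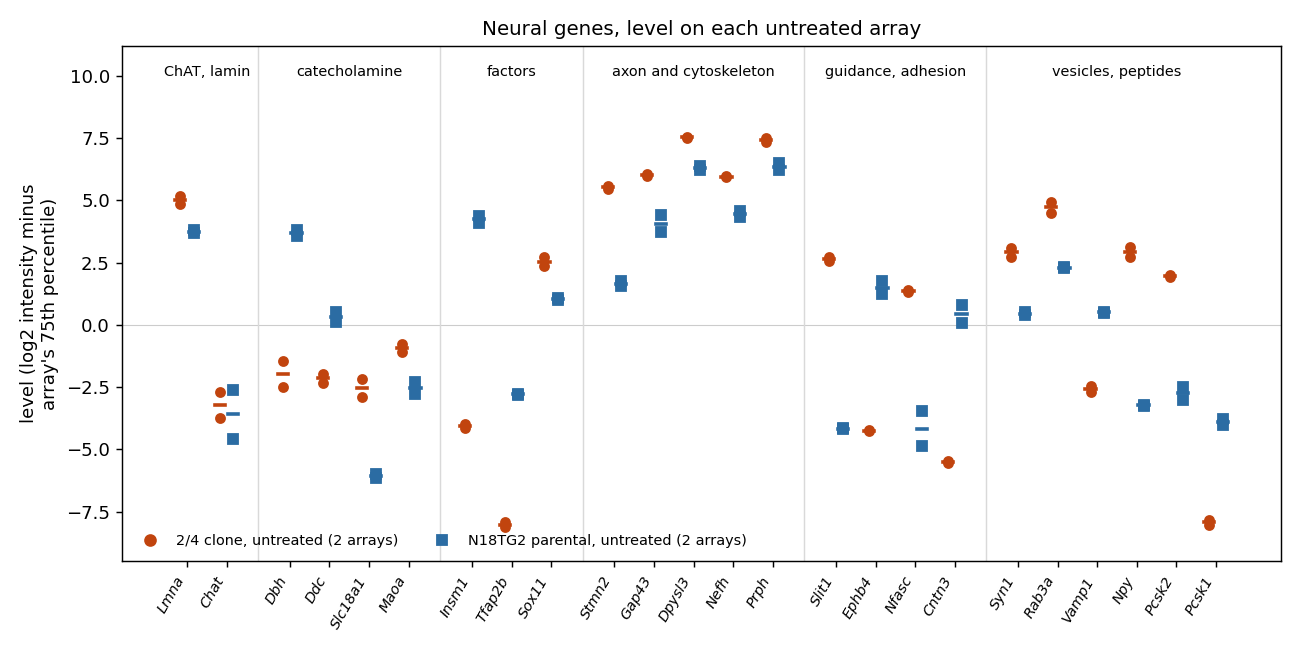
Level of 24 neural genes on each untreated array (log2 intensity minus the array's 75th percentile), clone as circles left of parental as squares, 2 arrays each, with short lines at the means. The groups overlap for Chat and for no other gene drawn, and all genes drawn except Chat were called. Over all 26262 genes tested, groups did not overlap for 9481 higher and 6303 lower genes. Dbh, Insm1, Ephb4 and Cntn3 lie far lower in the clone, and Stmn2, Slit1, Npy and Pcsk2 far higher.

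The exocytosis machinery was higher in part. Of 38 synaptic vesicle genes tested 9 were higher and 2 lower, and at least 3 of the 9 stayed called without any 1 array. Syn1 (synapsin I), which tethers vesicles to actin, averaged 2.91 in the clone, against 0.45 in the parental line, and Rab3a, a vesicle GTPase, read 4.50 and 4.94 in the clone, against 2.27 and 2.33 in the parental line. Both groups of 2 arrays were well apart for each gene (5.52-fold and 5.37-fold). Vamp1 (synaptobrevin 1) and Rab3b ran the other way, with differences of -3.09 ± 0.27 and -3.14 ± 0.27. For Rab3b the line difference on the RA arrays was 0.66 and not called, and the test of that change was called (adjusted p = 0.0323).

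Of 18 granin and neuropeptide genes 4 were higher and 1 lower. Npy, neuropeptide Y, a peptide of sympathetic neurons, read 3.13 and 2.72 in the clone, against -3.26 and -3.21 in the parental line, a 71.5-fold difference (adjusted p = 0.000366). Of the prohormone convertases that cut peptide precursors, Pcsk2 was higher (1.93 and 2.00 in the clone, against -2.50 and -3.01 in the parental line) and Pcsk1 lower, at least 7.74-fold, with no clone array well above background. Scg2 (secretogranin II) was higher by 2.05 ± 0.30 and Resp18, another granule protein, by 2.15 ± 0.30. Vgf and Chgb, both bright, were not called, Vgf with mean levels of 7.62 in the clone, against 8.14 in the parental line, and Chgb with 7.62 in the clone, against 7.05 in the parental line.

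Catecholamine genes changed in both directions, with 4 of 13 higher and 2 lower. Dbh, the enzyme that turns dopamine into noradrenaline, read -2.51 and -1.44 in the clone, against 3.82 and 3.57 in the parental line, a 51-fold lower signal in the clone (adjusted p = 0.000499). Ddc, which makes dopamine from L-DOPA, was lower (-2.47 ± 0.28). Th, the first enzyme of the path, read -0.90 and -0.99 in the clone, against -1.16 and -1.13 in the parental line and was not called (0.20 ± 0.27, adjusted p = 0.727). Thus the steps after the first were the ones called lower. Slc18a1, a vesicular monoamine transporter, was not well above background in the parental line and at least 9.2-fold higher in the clone. Maoa, which breaks catecholamines down, was higher by 1.62 ± 0.30.

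Of 24 sympathoadrenal transcription factors 1 was called higher and 3 lower, a share of 16.7%, near the 12.9% over genes with a symbol. Insm1, a zinc finger factor of sympathoadrenal and endocrine progenitors, had the largest difference among them, with -4.14 and -4.00 in the clone, against 4.39 and 4.09 in the parental line, a 318-fold lower signal (adjusted p = 0.000109). Tfap2b, an AP-2 factor of sympathetic precursors, was at least 16.8-fold lower and Neurog2 lower (-2.73 ± 0.44). Sox11 was higher by 1.50 ± 0.30. Gata3 and Hand2, which are needed for Dbh and Th in sympathetic neurons, differed by -1.55 ± 0.48 and -1.39 ± 0.39 and were not called (adjusted p = 0.0999 and 0.0763). Lhx2, a LIM homeodomain factor of the forebrain, was lower (-2.40 and -2.12 in the clone, against 3.15 and 2.79 in the parental line).

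Ion channels gave fewer calls. Of 25 sodium and calcium channel genes 4 were higher and 0 lower, a share of 16%, also near the 12.9% over genes with a symbol. Scn11a, the sodium channel Nav1.9 of sensory neurons, read 2.36 and 2.29 in the clone, against -3.24 and -2.98 in the parental line, and Scn3a read 1.48 and 0.71 in the clone, against -2.05 and -2.53 in the parental line. Cacna1h and Cacna1g, T-type calcium channels, were higher by 2.12 ± 0.32 and 1.53 ± 0.29. Of 41 potassium channel genes 2 were higher and 4 lower, a share of 14.6%, near the 12.9% over genes with a symbol. Kcnn2, a calcium-activated SK channel, was lower (-4.32 and -3.92 in the clone, against 1.39 and 1.00 in the parental line), and so was Kcnj4, an inward rectifier (-4.35 ± 0.34).

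In trophic signalling the called receptors were higher, and the called ligands were divided. Ngfr, the p75 neurotrophin receptor, read 5.65 and 5.86 in the clone, against 4.60 and 4.15 in the parental line, and Ntrk3 (TrkC) and Gfra2, a GDNF family receptor, were higher by 1.49 ± 0.29 and 2.05 ± 0.38. Other Ntrk3 probes bright on all 4 arrays differed by 1.66, 0.25 and 0.13. Ptn (pleiotrophin) is a ligand that was higher, by 1.71 ± 0.29, with 0.75 at another bright probe. Bdnf read -4.50 and -4.63 in the clone, against -0.36 and -0.73 in the parental line, and Artn (artemin) -5.89 and -5.73 in the clone, against -0.55 and -1.40 in the parental line, differences of -4.02 ± 0.30 and -4.83 ± 0.34. In all, 4 of 23 genes were higher and 2 lower. Leaving out 1 array could end all 4 higher calls, while both lower ones stayed called. Nrg1, a neuregulin ligand, was higher by 5.38 ± 0.32 (2.64 and 2.58 in the clone, against -3.02 and -2.52 in the parental line).

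Notch signalling works between neighbouring cells, with Jagged and Delta ligands, Notch receptors, and Hes and Hey factors as targets. Of 32 genes tested 5 were higher and 5 lower. The ligand Jag1 read -6.65 and -5.88 in the clone, against 0.29 and 0.89 in the parental line and was at least 104-fold lower in the clone. Jag2 was lower (-1.73 ± 0.25). Dlk1, a Delta-like protein that marks immature chromaffin and neuroblastoma cells, had the largest difference of any gene measured on all 4 arrays, with -3.91 and -3.81 in the clone, against 5.55 and 5.91 in the parental line, a 773-fold lower signal (adjusted p = 0.000271). The targets Nrarp and Hey2 were at least 16.5-fold and 13.9-fold lower. The receptor Notch3 was higher (1.50 ± 0.29), together with Mfng, a glycosyltransferase that modifies Notch (3.27 and 3.06 in the clone, against -0.79 and -0.50 in the parental line), and Dtx1, a Notch-binding ubiquitin ligase (1.33 and 1.41 in the clone, against -2.29 and -2.70 in the parental line).

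Wnt genes were divided in the same way, with 6 of 41 higher and 6 lower. The Frizzled receptors Fzd1 and Fzd9 were at least 74.7-fold and 83.7-fold lower in the clone, with no clone array well above background. Rspo1, a secreted amplifier of Wnt signals, read -1.66 and -1.04 in the clone, against 3.02 and 2.54 in the parental line, and its receptor Lgr5 was lower (-2.28 ± 0.32). Ror2, a receptor for Wnt5a, was not well above background in the parental line and read 0.24 and 0.55 in the clone, at least 58.6-fold higher. Nkd1, an inhibitor of Dishevelled, was at least 33.2-fold higher, and the ligands Wnt11 and Wnt10a were higher by 2.34 ± 0.29 and 2.29 ± 0.30. On the RA arrays both ligands differed by 0.42 and -0.42 and were not called, while Fzd1, Fzd9, Ror2 and Nkd1 were. The test of the change between treatments called neither ligand.

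Among 40 TGF-beta and BMP genes 5 were higher and 3 lower (20% called, against 12.9% over genes with a symbol). The median difference over the list was -0.03. Tgfbi, a secreted matrix protein that TGF-beta induces, read 5.03 and 5.16 in the clone, against 0.42 and 0.67 in the parental line, a 23.4-fold difference. Smad3, which relays the signal, was higher by 1.71 ± 0.30. The BMP receptor Bmpr1b and the BMP target Id4 were at least 34.5-fold and 17.7-fold lower.

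In cyclic AMP signalling 6 of 29 were higher and 0 lower, and at least 3 stayed called without any 1 array. Prkar1b, a neuronal regulatory subunit of protein kinase A, read 3.85 and 4.30 in the clone, against -2.43 and -2.53 in the parental line, a 94.1-fold difference (adjusted p = 0.000157). Prkar1a, another regulatory subunit, had mean levels of 5.98 in the clone, against 6.80 in the parental line and was not called, and its other bright probe differed by 0.31. The phosphodiesterase Pde2a and the cyclase Adcy7 were higher by 3.16 ± 0.29 and 2.69 ± 0.30. Of 16 lysophospholipid genes 4 were higher and 2 lower. Lpar4, a lysophosphatidic acid receptor that couples to several G proteins, was at least 108-fold higher, with 1.16 and 1.43 in the clone and no parental array well above background. The membrane proteins Plppr3 and Plppr5, related to lipid phosphatases and found in growing axons, were higher by 3.87 ± 0.39 and 4.22 ± 0.49. Sphk1, a sphingosine kinase, was lower (-1.88 ± 0.29). Feedback inhibitors of the MAP kinase path included 4 higher and 1 lower of 25, with Spry1 at 2.41 and 1.96 in the clone, against -0.48 and -0.54 in the parental line, Spry3 higher by 2.80 ± 0.37 and Dusp10 by 2.13 ± 0.38.

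Immediate early genes, which respond within minutes to serum and stress, were called lower only, 6 of 29, and at least 1 stayed called without any 1 array. Ccn1 (Cyr61), a secreted matrix protein, read -5.98 and -5.44 in the clone, against -0.46 and -0.18 in the parental line, and Nr4a1, an orphan nuclear receptor, 1.34 and 1.54 in the clone, against 2.82 and 2.63 in the parental line. Maff was lower (-2.15 ± 0.34) and so was Atf3 (-1.23 ± 0.28). Egr1 had mean levels of 5.34 in the clone, against 4.91 in the parental line and was not called.

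Of 29 collagen genes 8 were higher and 4 lower, with a median difference of 0.82 over the list. Both chains of basement membrane collagen IV were higher: Col4a2 read 1.94 and 1.58 in the clone, against -4.38 and -4.73 in the parental line, and Col4a1 0.61 and 0.43 in the clone, against -2.77 and -2.41 in the parental line. Col16a1, a fibril-associated chain, differed by 5.46 ± 0.32, and Col22a1 was at least 106-fold higher. Col18a1, the source of endostatin, and Col2a1, the cartilage collagen, were lower (-1.87 ± 0.37 and -3.25 ± 0.29). Of 39 integrin, laminin and matrix glycoprotein genes 10 were higher and 5 lower. The integrin chains Itga9 (-0.07 and -0.23 in the clone, against -5.41 and -4.91 in the parental line), Itgb3 (1.19 and 1.18 in the clone, against -2.16 and -2.55 in the parental line) and Itga8 (-0.48 and 0.10 in the clone, against -3.83 and -3.24 in the parental line) were higher, whereas Itgb4, the laminin-binding chain of hemidesmosomes, was lower (-2.21 and -2.52 in the clone, against 0.54 and 0.21 in the parental line). Vcan (versican) was lower (-3.58 ± 0.39) through its brightest probe, while another probe differed by -0.72.

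Matrix proteases and their inhibitors included 8 higher and 2 lower of 26 genes. Timp1, a secreted inhibitor, read 3.00 and 2.92 in the clone, against -1.81 and -2.20 in the parental line, a 31.2-fold difference. On the RA arrays the lines differed by 0.96 without a call, and the limma test of that change was not called (4.01, adjusted p = 0.0666). Timp2 and the metalloproteinase Mmp11 were higher by 2.81 ± 0.39 and 2.11 ± 0.27. Serpine2, a serine protease inhibitor that promotes neurite growth, was at least 43.4-fold lower, and Adamts1 at least 18.9-fold lower.

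Of 26 cadherin and catenin genes 2 were higher and 4 lower. Ctnna2, the neural alpha-catenin that links cadherins to actin, read 4.71 and 4.91 in the clone, against -1.93 and -1.43 in the parental line, an 89.6-fold difference (adjusted p = 0.000314), while Ctnna1 had mean levels of 5.51 in the clone, against 5.13 in the parental line. Cdh6, a cadherin, was lower (-4.99 and -5.43 in the clone, against -0.78 and -0.52 in the parental line). Of 27 genes linked to the mesenchymal state of neuroblastoma 2 were higher and 5 lower. Anxa2 was higher (5.96 and 6.11 in the clone, against 3.67 and 3.18 in the parental line), Axl and Sox9 were lower (-2.84 ± 0.30 and -3.36 ± 0.42), and Snai1 was at least 10.6-fold lower. Vim had mean levels of 5.57 in the clone, against 6.03 in the parental line and was not called.

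Genes that handle or answer retinoic acid differed although no RA had been added. Cells take up retinol through the receptor Stra6 and turn it into RA, which acts through RAR and RXR receptors, and is broken down by Cyp26 enzymes. Of 25 retinoid genes 7 were higher and 2 lower, or 36% called, against 9.82% over all genes and 12.9% over genes with a symbol, and at least 3 of the 7 stayed called without any 1 array. Rarg read 2.87 and 2.61 in the clone, against 0.17 and 0.73 in the parental line, Rxra -2.14 and -1.99 in the clone, against -3.79 and -4.65 in the parental line and Stra6 1.26 and 1.11 in the clone, against -1.02 and -0.90 in the parental line. Cyp26a1 was not well above background on either parental array and read -3.33 and -3.68 in the clone, at least 5.48-fold higher (adjusted p = 0.00221). Bco1, which cleaves carotene into retinal, was higher by 2.44 ± 0.31. The enzymes Aldh1a3 and Rdh10, which make RA and its precursor, were lower (-2.23 ± 0.28 and -2.43 ± 0.31). Rarb, a gene that RA induces in many cells, was not well above background on any untreated array.

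The promoter of Cyp26a1 is shown because the gene separated the untreated lines and carries a binding motif of the RA receptors. In the 250 bases before its start, from RefSeq in GRCm38.p6 (chr19:37697558-37697807, plus strand), the capitals mark a retinoic acid response element of the DR5 type, here read from the opposite strand.
Cyp26a1: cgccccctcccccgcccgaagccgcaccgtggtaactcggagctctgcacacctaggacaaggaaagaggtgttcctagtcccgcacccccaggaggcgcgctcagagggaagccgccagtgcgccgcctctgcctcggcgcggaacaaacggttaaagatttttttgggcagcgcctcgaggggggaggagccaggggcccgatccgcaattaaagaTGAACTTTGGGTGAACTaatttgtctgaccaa
Of 27025 promoters of this length 23 (0.0851%) held this motif on either strand. Among genes tested here 6 promoters did, and Cyp26a1 was the only one of the 6 called between the untreated lines.

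Hox genes, which set position along the body axis and include many RA-responsive members, gave 4 higher and 0 lower of 17. Hoxb4 read -0.54 and -0.21 in the clone and was not well above background in the parental line, at least 34.3-fold higher. Its neighbours Hoxb5 and Hoxb6 were at least 11-fold and 8.36-fold higher, and Hoxc4 was higher by 1.82 ± 0.28. Hoxc9 was not called and had mean levels of 3.33 in the clone, against 3.53 in the parental line. On the RA arrays the Hoxb4 difference was 1.02, and the test of the change was called (adjusted p = 0.0384).

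Hprt, the purine salvage gene that thioguanine selects against, was higher in the clone than in the parental line. It read 5.03 and 5.20 in the clone, against 1.53 and 1.54 in the parental line, a 12-fold difference (difference 3.58 ± 0.34, adjusted p = 0.00114), and remained higher on the RA arrays (2.59, adjusted p = 0.00247). The next 3 tested genes along the X chromosome were higher too. Plac1, a placental gene, was at least 24.8-fold higher and not well above background in the parental line. Fam122b read 1.48 and 2.09 in the clone, against 0.31 and -0.24 in the parental line, and Mospd1 2.22 and 2.37 in the clone, against 1.27 and 1.07 in the parental line. Aprt, another salvage enzyme, had mean levels of 7.07 in the clone, against 7.20 in the parental line. Of 21 purine genes tested 2 were called, both higher, a share of 9.52%, below the 12.9% over genes with a symbol. The X-linked neighbours were picked after their values were seen.

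The X chromosome held the largest share of called genes in both directions. Of 527 X-linked genes with a symbol 13.5% were higher and 12% lower, against 7.63% and 4.81% over the autosomes. Single autosomes ran from 3.63% (chromosome 14) to 13% (chromosome 19) for higher genes and from 2.63% (chromosome 19) to 6.68% (chromosome 14) for lower ones. Called genes also lay side by side. Taking tested genes with a symbol in chromosome order, 29 stretches of 3 or 4 neighbours were all called higher and 10 stretches of 3 to 7 all lower. The longest lower one held 7 vomeronasal receptor genes of chromosome 7, whose sequences are so alike that their probes may read each other's transcripts. These stretches were looked for after the calls were known and carry no test.

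**Figure D3:**
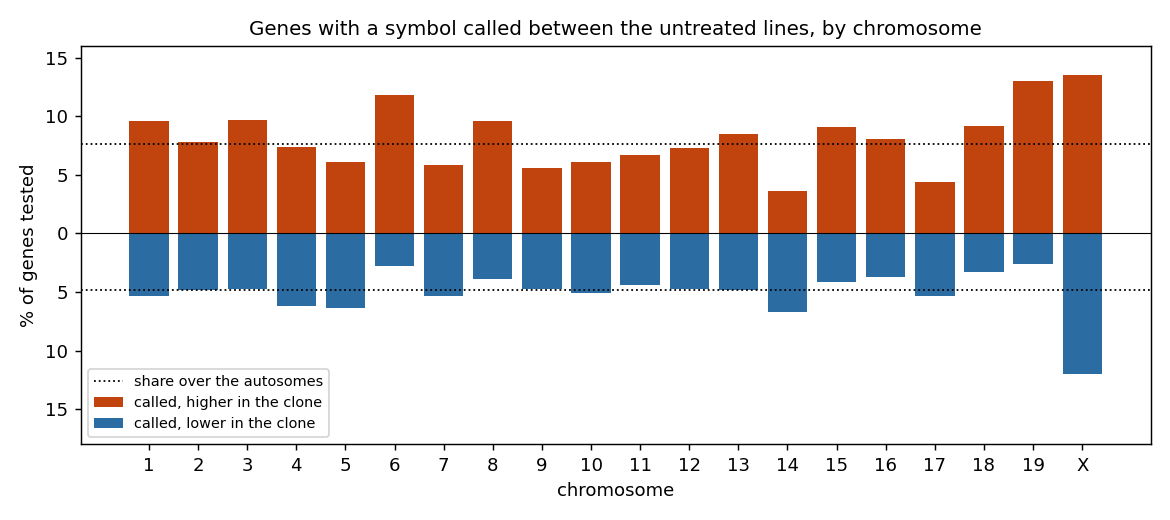
Share of genes with a symbol that were called between the untreated lines, by chromosome, in percent of the genes tested there, higher in the clone above 0 and lower below 0. Dotted lines give the shares over the autosomes (7.63% and 4.81%); the X chromosome has 13.5% higher and 12% lower.

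The X-linked calls included germline genes, which most body tissues keep silent. Magea1 read -5.75 and -6.87 in the clone, against 2.67 and 2.41 in the parental line, with no clone array well above background, and was at least 462-fold lower in the clone (adjusted p = 0.000301). Its relatives Magea3, Magea5 and Magea8 and the gene Mageb4 were at least 251-fold, 115-fold, 102-fold and 253-fold lower. Thus 5 melanoma antigen genes read in the parental line had no clone array above background. Ctag2l2, related to human cancer/testis antigens, was at least 256-fold lower, and Dcaf8l, Gm15023 and Gm5128, also on the X, at least 685-fold, 637-fold and 454-fold. Other X-linked germline genes ran the opposite way. Slxl1 read 4.22 and 4.29 in the clone, against -1.37 and -1.99 in the parental line, its relative Slx 6.70 and 6.97 in the clone, against 3.15 and 2.75 in the parental line, and Pnma5, related to paraneoplastic antigens, 3.88 and 3.86 in the clone, against -3.63 and -3.32 in the parental line. Members of the Magea and Slx families are close copies, so their values are not independent of each other. Magea3, Magea5, Magea8 and Slx were named after their values were seen. The levels of these genes, of Hprt and of imprinted genes are drawn in the plot of chromosomal and pathway groups.

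**Figure D4:**
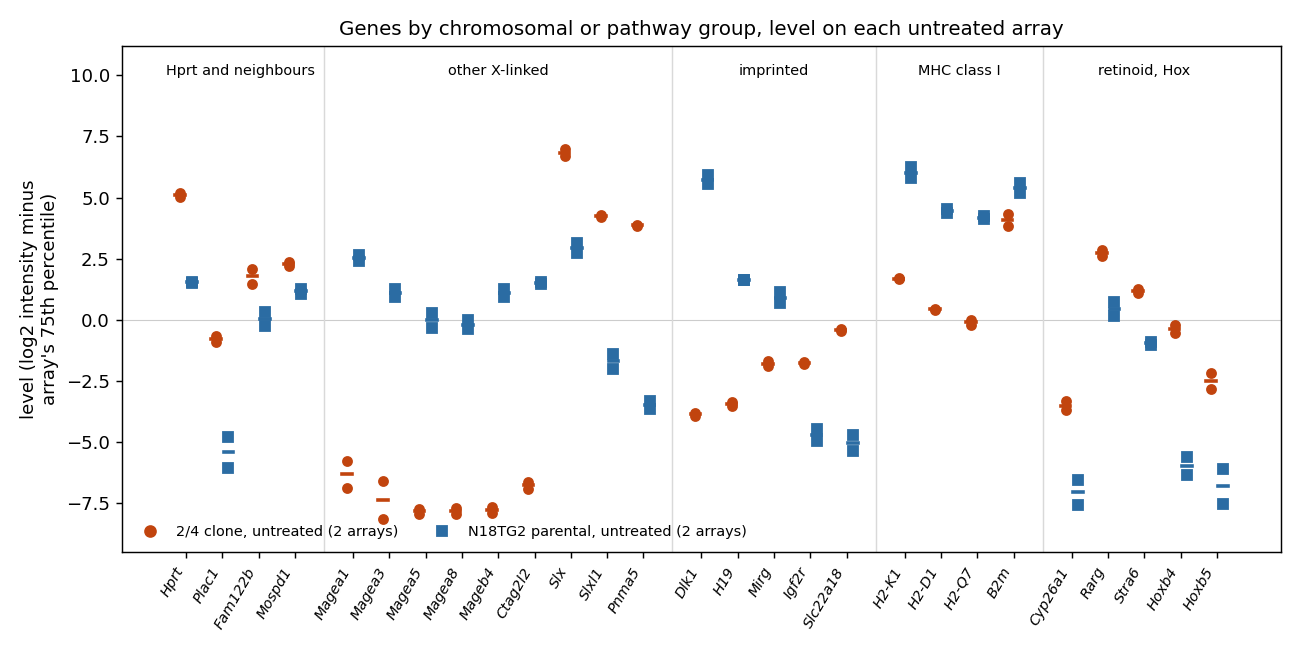
Level on each untreated array (log2 intensity minus the array's 75th percentile) of Hprt and its neighbours, other X-linked genes, imprinted genes, MHC class I genes and retinoid and Hox genes, clone as circles left of parental as squares, 2 arrays each, with lines at the means. No gene drawn has overlapping groups, and all were called. Over all 26262 genes tested, groups did not overlap for 9481 higher and 6303 lower genes. The Magea genes, Mageb4 and Ctag2l2 lie at the bottom of the plot in the clone, and Slx, Slxl1 and Pnma5 well above their parental values.

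The promoters of Hprt, Magea1, Ctag2l2 and Slxl1 are set side by side because these X-linked genes differed widely between the lines, and because germline genes of this kind are often kept silent by methylation of CpG dinucleotides. Each is the 250 bases before the start (RefSeq, GRCm38.p6). For Hprt (chrX:52987828-52988077, plus strand) the capitals mark the GC box GGGCGG, and for Magea1 (chrX:155089791-155090040, minus strand), Ctag2l2 (chrX:74740677-74740926, plus strand) and Slxl1 (chrX:55226626-55226875, plus strand) each CpG.
Hprt: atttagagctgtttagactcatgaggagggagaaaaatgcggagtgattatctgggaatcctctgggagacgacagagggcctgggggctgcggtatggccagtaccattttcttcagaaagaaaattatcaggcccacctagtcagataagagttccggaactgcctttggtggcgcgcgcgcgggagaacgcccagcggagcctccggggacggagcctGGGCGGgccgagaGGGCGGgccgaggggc
Magea1: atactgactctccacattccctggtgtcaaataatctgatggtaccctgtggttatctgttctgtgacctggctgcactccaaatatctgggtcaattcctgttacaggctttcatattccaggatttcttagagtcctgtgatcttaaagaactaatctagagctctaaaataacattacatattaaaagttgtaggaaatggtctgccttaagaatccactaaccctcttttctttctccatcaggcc
Ctag2l2: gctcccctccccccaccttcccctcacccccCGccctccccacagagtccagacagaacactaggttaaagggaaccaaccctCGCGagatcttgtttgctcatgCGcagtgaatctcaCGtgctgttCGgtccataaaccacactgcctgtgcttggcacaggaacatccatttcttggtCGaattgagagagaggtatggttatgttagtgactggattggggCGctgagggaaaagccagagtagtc
Slxl1: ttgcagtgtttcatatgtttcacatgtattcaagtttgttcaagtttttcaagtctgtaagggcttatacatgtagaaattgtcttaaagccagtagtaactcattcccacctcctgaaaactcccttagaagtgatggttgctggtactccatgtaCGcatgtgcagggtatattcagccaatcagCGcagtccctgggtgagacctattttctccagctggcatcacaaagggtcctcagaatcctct
The Hprt window held 2 GC boxes and 17 CpGs, and 32.7% of all promoters of this length hold a GC box on either strand. Magea1 held 0 CpGs, Ctag2l2 8 and Slxl1 2, beside a median of 8 over the 447 tested X-linked genes, of 14 over all 12060 tested genes with a promoter, and of 5 over all 27025 promoters. The median was 6 over the 184 called genes that were higher in the clone and not well above background in the parental line. It was 8 over the 156 that were lower and not well above background in the clone. Among the latter, 23 lay on the X chromosome, with a median of 5, beside 8 over the tested X-linked genes. No methylation was measured here.

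Imprinted genes, read from 1 parental copy, were called in 12 of 34 cases, 6 higher and 6 lower. H19, a non-coding RNA expressed from the maternal copy, read -3.35 and -3.53 in the clone, against 1.62 and 1.62 in the parental line, a 33.4-fold lower signal (adjusted p = 0.0016). Dlk1, described above, and Mirg lie in the same imprinted domain of chromosome 12 and were both lower, Mirg with a difference of -2.70 ± 0.42. Meg3 of that domain read -1.76 and -1.41 in the clone, against -2.02 and -1.93 in the parental line and was not called. A dimmer Meg3 probe was higher in the clone by 2.27, without an exact size, since it was well above background on both clone arrays and on no parental array. Igf2r read -1.78 and -1.71 in the clone, against -4.46 and -4.94 in the parental line, and Slc22a18 -0.38 and -0.45 in the clone, against -5.35 and -4.68 in the parental line. Phlda2, a neighbour of Slc22a18, was higher by 2.82 ± 0.45, and Nap1l5 and Magel2 by 2.60 ± 0.32 and 1.68 ± 0.33.

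Class I MHC genes, whose products show peptides to T cells, are often low in neuroblastoma. Of 23 genes of antigen presentation 7 were lower and 1 higher, and at least 3 of the 7 stayed called without any 1 array. H2-K1 read 1.66 and 1.72 in the clone, against 6.25 and 5.78 in the parental line, a 20.1-fold lower signal (adjusted p = 0.000439). H2-D1 read 0.41 and 0.45 in the clone, against 4.55 and 4.38 in the parental line, and B2m, the shared light chain, was lower (-1.32 ± 0.31). H2-Q7 differed by -4.28 ± 0.30, but the class I genes are near copies and their probes may share transcripts. H2-Q4 had mean levels of 5.91 in the clone, against 5.20 in the parental line and was not called. Psmb8, an immunoproteasome subunit, was higher (1.61 ± 0.30). In the interferon response list 2 of 24 were higher and 2 lower, a share of 16.7%, near the 12.9% over genes with a symbol. Among them were Rsad2, at least 4.28-fold higher, and Oas1a, lower (-1.72 ± 0.40).

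Of 30 DNA replication genes 0 were called by limma, and of 30 mitosis genes 1, Kif4, a chromosome-associated kinesin, lower (-1.12 ± 0.27). Of 20 endoplasmic reticulum chaperones 0 were called, and of 29 genes of the ATF4 stress response 2, Stc2 and Atf3, both lower. At an unadjusted limma p under 0.05 there were 6 replication and 2 chaperone genes. The share of all genes at that threshold was not worked out, so these counts show neither an excess nor a lack. Among 28 cyclins, kinases and inhibitors Ccnd2 (cyclin D2) was at least 15.9-fold lower, while Cdk4 had mean levels of 6.87 in the clone, against 6.73 in the parental line. Of 58 ribosomal protein genes and paralogues 2 were called, both paralogues of limited tissues. Rpl39l, a testis paralogue of Rpl39, read -7.60 and -7.87 in the clone, against 4.66 and 4.33 in the parental line and was at least 2624-fold lower, and Rpl3l, a muscle paralogue of Rpl3, at least 31-fold lower. Of 22 p53 target genes 2 were higher and 4 lower (27.3% called, against 12.9% over genes with a symbol). Of 33 hypoxia and glycolysis genes 3 were higher and 1 lower (12.1% called). For cholesterol synthesis and uptake 2 of 29 genes were higher and 0 lower (6.9% called). Of 24 lamina and nuclear envelope genes 3, Lmna included, were higher and 2 lower (20.8% called). Syne1 (nesprin 1) was higher by 2.50 ± 0.50 and Lemd3, an inner membrane protein, lower (-2.01 ± 0.50).

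Some genes were bright in one line and not well above background in the other. Steap1, a metalloreductase of the cell surface, had the largest bound, reading -7.88 and -8.08 in the clone, against 4.67 and 4.44 in the parental line, at least 2739.7-fold lower in the clone (adjusted p = 7.89e-05). Prom1 (CD133), a progenitor marker, was at least 1319.7-fold lower, Rbpms2, an RNA-binding protein, at least 764-fold, and Scd1, a fatty acid desaturase, at least 373-fold. Mt1, a metal-binding metallothionein, was at least 668-fold lower, with 2.78 and 2.26 in the parental line. In the other direction Sdk1, a synaptic adhesion protein, was at least 85.1-fold higher, Lrrn2 at least 76.6-fold and Mrap2, a melanocortin receptor partner, at least 66.1-fold. The bounds of higher genes were smaller than those of lower genes: 108-fold was the largest among genes with a symbol. The lowest level well above background was -5.34 and -6.58 on the parental arrays, against -6.34 and -7.39 on the clone arrays. At equal brightness a higher gene therefore gets a smaller bound than a lower gene. Some probes not well above background read above these levels, such as that of Cntn3 with a mean of -5.52 in the clone. The bounds thus rest on the chosen floor and are not strict, and a higher floor would give smaller folds.

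Among genes read on all 4 arrays Sin3b, a scaffold of histone deacetylase complexes, read 5.29 and 5.20 in the clone, against -3.07 and -2.38 in the parental line. That value comes from its brighter probe, since the other was well above background on 1 clone array and no parental array and differed by 1.10. Nnmt, which methylates nicotinamide, differed by 6.36 ± 0.43, Cdk18, a cyclin-dependent kinase, by 6.08 ± 0.49, and Ass1, the argininosuccinate synthase of arginine synthesis, by 5.42 ± 0.34. Pcp4, a calmodulin-binding peptide of neurons, read 6.66 and 6.88 in the clone, against 1.21 and 1.64 in the parental line, and Hcrtr1, an orexin receptor, 1.48 and 1.82 in the clone, against -3.73 and -4.07 in the parental line. On the lower side Fkbp10, a collagen chaperone, read -3.82 and -3.67 in the clone, against 3.77 and 3.56 in the parental line, and Gadd45g, a growth arrest gene, -3.96 and -3.36 in the clone, against 3.09 and 2.92 in the parental line. Igfbp2, which binds insulin-like growth factors, and Wnk2, a kinase, were lower (-6.36 ± 0.39 and -6.75 ± 0.28). Of 526 called genes read by more than 1 informative probe, all probes went the same way in 497.

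Markers of other cell types were called in 11.1% to 23.1% of those tested in each list, against 9.82% over all genes and 12.9% over genes with a symbol. Of 14 glial genes tested 2 were lower, among them Mbp, at least 36.3-fold. The summed linear level of the 20 glial markers was 13.8 and 15.6 on the clone arrays, against 10.4 and 9.8 on the parental arrays, and 6 of them, Olig1, Olig2 and S100b included, were not well above background anywhere among the untreated arrays. Of 13 vessel, blood and microglia genes tested Tmem119 was higher (1.96 ± 0.32), and Hba-a1 (-4.83 and -4.50 in the clone, against 0.49 and 0.33 in the parental line) and Hba-a2 (-1.66 and -1.54 in the clone, against 2.27 and 1.91 in the parental line), haemoglobin alpha genes that are close copies, were lower. Hbb-b2, Cdh5, Cx3cr1, P2ry12 and Tek were not well above background on any untreated array. Of 9 fibroblast genes Col1a1 was higher (2.46 ± 0.32), with Col3a1, Lum and Postn not well above background, and of 10 hippocampal genes Camk2a and Wfs1 were higher, by 1.40 ± 0.29 and 1.32 ± 0.28, while another bright Camk2a probe differed by 0.40. The sum over the 20 hippocampal markers was 14.3 and 14.7 on the clone arrays, against 7.92 and 7.63 on the parental arrays. The 19 vessel, blood and microglia markers summed to 27.4 and 24.6 on the clone arrays, against 29.2 and 25 on the parental arrays, and the 12 fibroblast markers to 29.5 and 21.9, against 43.6 and 22.9. The part of other cells in the line difference was not tested.

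The line difference was read a second time on the 4 RA arrays. These share no array with the untreated ones and have the slide rows of the lines exchanged. For both comparisons the spread of a gene was estimated from all 8 arrays, so the calls without and with RA are not independent. Slide columns were not exchanged: in both treatments the clone arrays lay in columns 2 and 4 and the parental arrays in columns 1 and 3. There 6081 genes were called (23.2%), 12.9% higher and 10.2% lower. One of those arrays, clone RA replicate 1, had 71.76% of its probes well above background, against 54.3% to 62.78% on the other 3. Of the 2578 genes called without RA, 2446 (94.9%) had the same sign with RA and 1958 (76%) were called in that direction, which is 32.2% of the genes called with RA. Of the 1609 higher genes 1238 were called higher again, and of the 969 lower ones 720 were called lower again. In the opposite direction 29 were called. With the average of the differences without and with RA, in which slide row but not slide column cancels, 7276 genes were called.

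**Figure D5:**
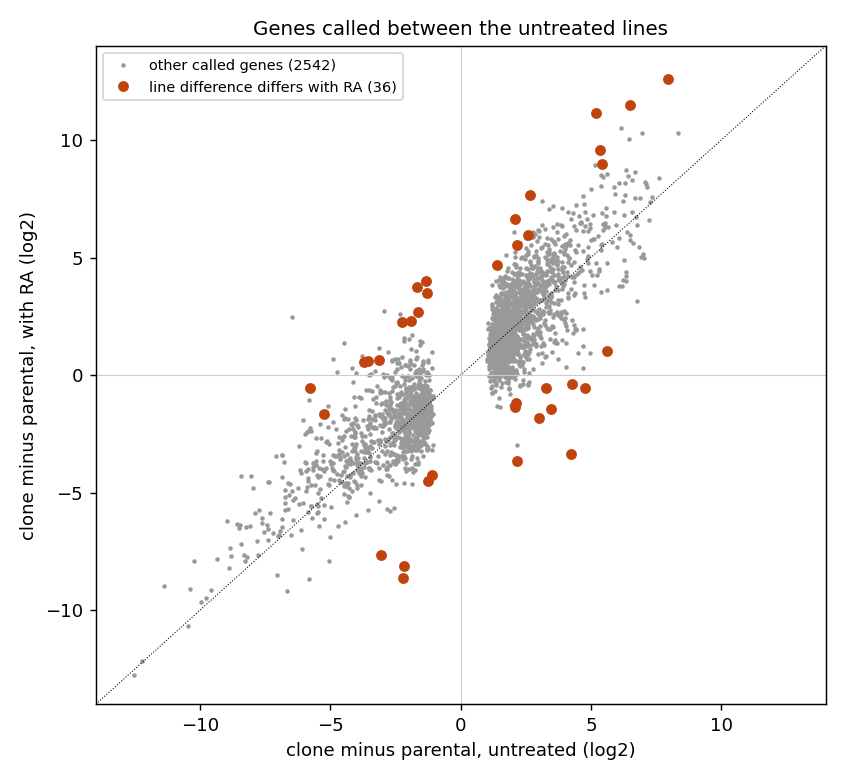
Difference between clone and parental line with RA (vertical, log2) against that without RA (horizontal, log2) for the 2578 genes called without RA; the dotted line marks equal differences. Of these genes 2446 lie in the quadrants of equal sign, and the 36 large points are genes whose line difference differed between the treatments.

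The test of the difference between the untreated and the RA line difference called 54 genes (0.206%), 36 of them called without RA, and 0 when any 1 of the untreated or the parental RA arrays was left out. Tff1, a trefoil peptide, changed sign. It was at least 8.44-fold higher in the untreated clone (difference 4.23 ± 0.42) and differed by -3.37 with RA, where 1 clone array was well above background. Nrip2, a nuclear receptor partner, was higher by 3.47 ± 0.27 without RA and differed by -1.46 with RA. Ptgds, a prostaglandin D synthase, was lower in the untreated clone (-1.31 ± 0.25) and higher with RA (3.49), and so was Dusp26, a phosphatase (-2.24 ± 0.27 without RA and 2.26 with RA). Lrrn4 was lower (-5.79 ± 0.31) without RA and differed by -0.55 with RA, and Pcp4 and Ctnna2 were higher by 5.35 ± 0.28 and 6.49 ± 0.41 without RA and by 9.57 and 11.49 with RA. Ctnna2 was not well above background on either parental RA array, so its value with RA has no exact size.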

How the data were processed

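Each of 8 one-colour Cy3 arrays of 1 slide gave 62976 spots. Per the file headers, the authors' scanner software (Feature Extraction 10.7.3.1) wrote the deposited intensity per spot, subtracted for background and detrended within the array. The deposited log2 table, which differed from these intensities only by an offset for each array, served as an alternative. From the intensity, log2 values were scaled to each array's 75th percentile, spots marked as outliers and 3671 control spots were left out, and spots of a probe were averaged. Probes well above background on at least 2 arrays were kept (36636 of 55681), and the brightest probe stood for a gene (26262 genes, 15184 with a symbol through RefSeq accessions, GRCm38.p6). limma 3.58.1 in R 4.3.3 fitted 1 mean per group over 8 arrays, with Benjamini-Hochberg adjustment over all genes and a threshold of 0.05. Where no array of a group was above background, the fold is a bound ("at least"). It sets the bright group's mean against the higher of the dim probe's value and the lowest signal well above background. That lowest signal is a chosen floor and not a strict detection limit, so a higher floor would give smaller folds. The number of arrays limits the precision. In a simulation of the untreated comparison on 26210 genes, 67 genes were changed by 1 log2 unit, 67 by 2 and 66 by 4. All others were left unchanged. Of the changed genes 0%, 19.4% and 87.9% were called, with 3 unchanged genes called. In the data 2578 genes were called. With so few changed genes the adjustment is stricter than in the data, so these shares do not give the sensitivity of the real comparison.

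Genes were named by rule: Chat and Lmna, the largest differences and bounds, the smallest p, called members of the lists, and their brightest or most different members not called. Outside it, Th, Meg3, Rarb, Plac1, Fam122b, Mospd1, Magea3, Magea5, Magea8 and Slx were named after their values were seen. The members and lists were chosen with earlier results of these data known. The untreated clone and parental arrays lay in different slide rows, exchanged under RA, so row and line cannot be told apart without RA. They also lay in different slide columns, which were the same under RA, so column and line cannot be told apart in either treatment. Alternatives were another background correction, normalization, filter, floor, probe rule, variance model, source of values, block and set of arrays. Background correction by normexp used median spot signals, the only raw signal used here. Some items are not reported here.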

Additional observations from a re-analysis of the deposited data

Results flagged for a closer look

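The line difference differed between the untreated and the RA arrays, by the test of that difference in limma, for 21 of the genes that the rules for naming genes cover. The values below are the untreated line difference minus that with RA, on the log2 scale. The slide rows of the lines are exchanged between the treatments, so row and treatment cannot be told apart here, and none of these calls was kept without 1 of the untreated arrays. The value was positive for Tff1 (7.6), Eppk1 (5.959), Sorcs2 (5.801), Nrip2 (4.933), Hoxb4 (4.593), Ppp1r14d (4.589) and Atf3 (3.286). Among neural genes it was negative for Ctnna2 (-5.001), Pcp4 (-4.223), Pcdh15 (-4.172), Rab3b (-3.802), Tfap2b (-3.572), Scn11a (-3.55) and Kcnmb2 (-4.332). It was also negative for Trim63 (-5.335), Lrrn4 (-5.241), Dio2 (-4.999), Ptgds (-4.797), Sin3b (-4.62), Dusp26 (-4.499) and Hba-a2 (-4.262). Several of these values have no exact size, because a group had no array well above background. This holds for Tff1 and Hoxb4 in the untreated parental line, Trim63 in both untreated groups and in the parental line with RA, Tfap2b in the clone without and with RA, Ppp1r14d in the clone with RA, and Ctnna2 and Sin3b in the parental line with RA. For Sin3b and Pcdh15 other probes of the gene gave smaller untreated differences.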

How the results depend on the processing

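Of 213 called genes considered for naming, 138 had a value in all 19 alternatives run per gene, and 73 of these stayed called in each. The other 75 had none when probes had to be well above background on all arrays, and 47 of them stayed called in each alternative they had. None of the 213 changed direction in the alternatives it had. The count of 2578 genes called without RA was 1213 with normexp, 1386 with no filter on dim probes, 811 against a 2-fold difference and 7276 for the average of the line differences, and 785 to 3179 with 1 array left out. Normexp moved the median difference over all genes to -0.19, against 0.11. The 6081 genes with RA were 3646 with normexp and 3703 with no filter, and 3817 to 7285 with 1 array left out. The 54 genes whose line difference differed with RA were 0 with normexp, 0 with no filter, 311 with probes above background on all arrays, 452 with a trended and robust variance, 21 with slide side as a block, and 0 to 1016 with 1 array left out. The 259 list members called were 169 with normexp and 161 with no filter, and 106 to 287 with 1 array left out. Lmna kept its difference of 1.27 with no filter, with an adjusted p of 0.0794 in limma, and ran from 1.12 to 1.43 with 1 array left out. For the average of the line differences it was 0.70 (adjusted p = 0.0298 in limma). Chat turned to -0.064 with normexp and ran from -0.59 to 1.35 with 1 array left out. Its average of the line differences was 1.89, which takes in clone RA arrays that read 1.10 and -2.58. Among genes that were not called, Aprt turned to 0.057 and Rarb to 0.45 with quantile normalization, and with 1 array left out Aprt ran from -0.37 to 0.12, Rarb from -0.732 to 0.23, Eya1 from -0.269 to 0.059 and Cdk4 from -0.11 to 0.41. The causes of these changes were not tested. Some of the settings also brought fewer arrays or more genes tested. No paired analysis by replicate number was possible because the labels give none. Each side of the slide held 1 array of each group, and with side as a block 2551 genes were called without RA.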
